A study of Homo sapiens with 8 samples.

Results

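The genes described here are the nuclear genes of respiratory complexes II, III, IV and V, in 3 established human cell lines whose native RNA was read by direct RNA sequencing on nanopores. Members were annotated genes whose symbols begin with UQCR, COX4 to COX8 followed by a letter, or ATP5, together with SDHA, SDHB, SDHC, SDHD and CYC1, and names that end in P or in P and digits, as pseudogene names do, were left out. This gave 46 of the 20565 annotated genes in the deposited tables: 4 of complex II, 10 of complex III, 12 of complex IV and 20 of complex V. They carried 2592 of the 506946 transcript models listed, and 1838 of these had reads. All 46 had at least 1 read and 42 were abundant enough to test. The 4 that were not are UQCRHL, COX4I2, ATP5S and the readthrough gene ATP5MF-PTCD1.

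The 8 libraries came from GM12878, a B-lymphoblastoid line (3 libraries), HepG2, a hepatocellular carcinoma line (3), and K562, a myelogenous leukaemia line (2). All were untreated lines grown by ENCODE protocols, per the labels, and total RNA was the starting material. The stated aim was to set nanopore reads beside PacBio reads through TALON, which places every long read in an annotated or a new transcript model; PacBio reads were not analysed here. Whether libraries of a line stem from different cultures is not stated in the labels, and the p-values therefore reflect differences among libraries that may be technical.

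Read totals ran from 70374 to 461497 per library. The labels give K562 the same lymphoblastoid cell type as GM12878. CPM here are reads scaled to a common total of tested-gene reads after TMM normalisation, which centres libraries on the bulk of genes. They are therefore not shares of a library's reads. In these sums ± is SD, with n = 3, 3 and 2 for GM12878, HepG2 and K562 throughout. The 5 B cell markers summed to 6340 ± 506 CPM in GM12878 and 4.97 ± 2.15 in K562, which held 32600 ± 1580 CPM of 5 erythroid markers (4 globins and GATA1). The 5 hepatocyte markers took 104000 ± 8340 CPM in HepG2, against 7.76 ± 13.4 in GM12878 and 0 in K562. Between libraries of the same line, chi-square per degree of freedom was 1.23 to 2.22 in GM12878 and HepG2 and 3.53 for the K562 pair.

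Complex II, succinate dehydrogenase, oxidises succinate in the Krebs cycle and passes the electrons to ubiquinone. Complex III passes them on to cytochrome c, and complex IV hands them to oxygen. Both pump protons across the inner mitochondrial membrane, and complex V, the ATP synthase, uses their return to make ATP. Complex II is built wholly from nuclear genes, whereas III, IV and V join subunits made in the cytosol and imported with a few made inside the mitochondrion from mitochondrial DNA.

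Sequences are shown for the members whose differences the results turn on. The first set concerns ATP5MC1, one of the genes for the membrane ring of ATP synthase, whose first exon differed between lines. ATP5MC1 lies on the plus strand at chr17:48892765-48895871 (GRCh38, GENCODE 29). Exon 1 of transcript ATP5MC1-201 ends at 48892840, and exon 1 of ATP5MC1-202 reaches 70 bases further, to 48892910. Both join the same exon 2 at 48893409, and from exon 2 to exon 5 they share 520 bases and the whole coding sequence, since translation starts in exon 2. Exon 1 is 5′ untranslated in both. The junctions of exon 1, in capitals, with exon 2, in lower case, are the following.
ATP5MC1-201: GGCTAAAGCTGGGAGactgaaaaaatgcag
ATP5MC1-202: GTAGTAGGAGTGCAGactgaaaaaatgcag
The exon 1 bases that ATP5MC1-202 keeps across the splice site used by ATP5MC1-201 are given next, with capitals for the bases shared with that exon.
ATP5MC1-202 exon 1: GGCTAAAGCTGGGAGgtgagtctgtcacct

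The second set is the sequence upstream of the members with the largest change in each direction between HepG2 and GM12878. COX5B, a subunit of complex IV, and ATP5IF1, the inhibitor of ATP synthase, are shown up to the base before the first annotated start with reads (RefSeq, GRCh38.p14, plus strand, chr2:97645812-97646039 and chr1:28235874-28236108). Capitals mark exact matches to GCATGCGC, a core bound by NRF1, and to CCGGAAG, a core bound by ETS factors such as GABP, on either strand.
COX5B: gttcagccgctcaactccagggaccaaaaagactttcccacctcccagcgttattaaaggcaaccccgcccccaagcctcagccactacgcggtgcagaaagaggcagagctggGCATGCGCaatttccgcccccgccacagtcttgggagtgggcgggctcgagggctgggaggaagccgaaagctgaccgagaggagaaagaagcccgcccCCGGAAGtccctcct
ATP5IF1: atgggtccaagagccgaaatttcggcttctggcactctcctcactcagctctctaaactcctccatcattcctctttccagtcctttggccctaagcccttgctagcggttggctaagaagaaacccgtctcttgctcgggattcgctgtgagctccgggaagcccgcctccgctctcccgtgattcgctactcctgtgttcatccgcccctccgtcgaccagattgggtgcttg
COX5B held 1 match to each core and ATP5IF1 held neither in this window, which says only that these letters are absent there. Over windows of 250 bases before to 50 after the start, 34 of the 46 members were matched in RefSeq. GCATGCGC was found in 8 of them (23.5%), against 3.68% of 27305 genes, and CCGGAAG in 16 (47.1%), against 12.2%. AAGATGGC, a core bound by YY1, was in 5 (14.7%), against 3.52%. SDHB and ATP5PF held all 3 cores, as named after the matches were seen. The 27305 genes were not limited to genes with reads here, and the shares among expressed genes alone were not tested. These are letter matches, not binding sites.

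The members took 2.18%, 2.37% and 2.42% of gene reads in the 3 GM12878 libraries, 1.57%, 1.53% and 1.93% in the HepG2 libraries, and 2.92% and 2.67% in the K562 libraries, so the lines did not overlap. The 5 hepatocyte markers summed to 104000 ± 8340 CPM in HepG2, and their part in its lower member share was not tested. The gap was smaller in CPM, which carry the TMM normalisation, than in shares of gene reads, which do not. In CPM the members summed to 23200 ± 1190 in GM12878, 21900 ± 2260 in HepG2 and 27800 ± 1270 in K562. HepG2 ran from 20000 to 24400 CPM and overlapped GM12878, at 21800 to 24100, while both K562 libraries, at 26900 and 28700, lay above all 6 others. In bulk RNA of this kind, fewer cells of a type and less RNA per cell cannot be told apart.

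Complexes II, III and V were highest in K562 and complex IV was not separated between lines. Complex II summed to 515 ± 46.1 CPM in GM12878, 624 ± 47.7 in HepG2 and 791 ± 101 in K562, with no overlap of the 3 ranges. Between GM12878 and HepG2 the means of its subunits differed in direction, but in the edgeR test described below only SDHA had an adjusted p under 0.05. SDHA averaged 135 and 263 CPM and SDHC 109 and 135, while SDHB, at 215 and 187, and SDHD, at 56.2 and 38.1, were lower in HepG2. The SDHA rise, the largest of these differences, was not seen over known models alone, and the complex II sums include it. Complex III summed to 3760 ± 462, 3960 ± 499 and 5260 ± 29.3 CPM in the same order, and complex V to 10900 ± 403, 9950 ± 896 and 13100 ± 119 CPM, both with the K562 pair above every other library. Complex IV summed to 8010 ± 350, 7330 ± 832 and 8610 ± 1320 CPM, and its 3 ranges overlapped. The K562 libraries were 7680 and 9540 CPM for complex IV, wider apart than for complex III or V.

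**Figure D1:**
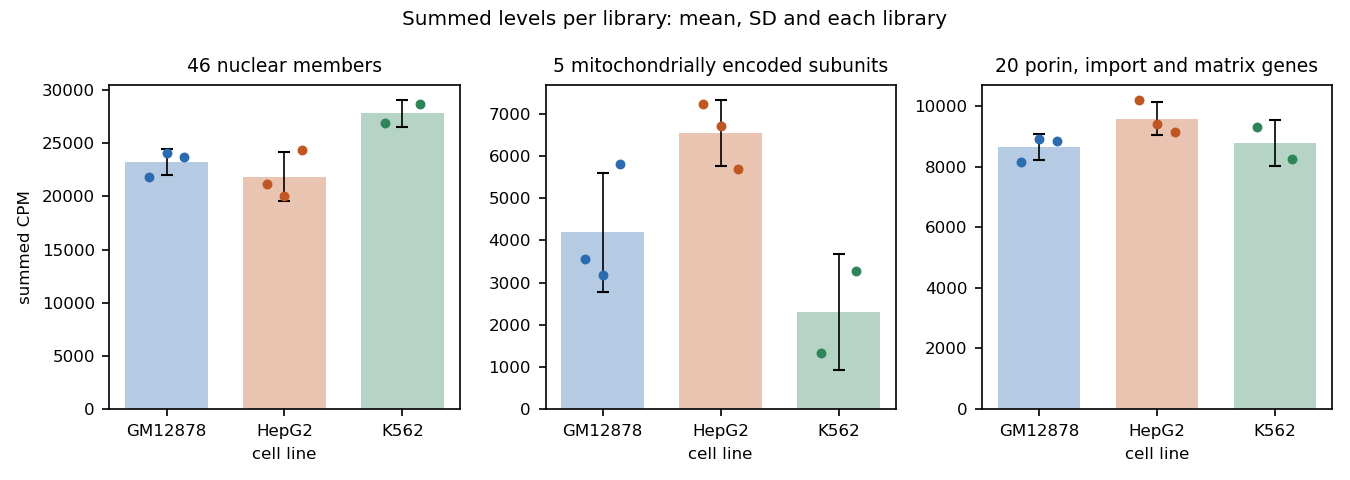
Summed CPM per library (points), with the mean (bar) and SD (line), for the 46 nuclear members, the mitochondrially encoded subunits measured and 20 genes for porins, import and matrix proteins, in GM12878 and HepG2 (3 libraries each) and K562 (2). The nuclear sum is highest in both K562 libraries, at 26900 and 28700 CPM, while the mitochondrially encoded sum is highest in HepG2 on average, at 6550 CPM, and lowest in K562, at 2310 CPM.

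Of the 42 tested members, 4, 1 and 7 were called in the 3 comparisons of lines. A gene was called where edgeR's quasi-likelihood test gave a Benjamini-Hochberg adjusted p under 0.05 and the fitted change was at least 1 on the log2 scale, a 2-fold change. In HepG2 against GM12878, 4 of 42 tested members were called, COX5B higher in HepG2 and ATP5IF1, COX7B and ATP5MG lower, while 49.1% of the 4778 genes tested were called, 28% higher in HepG2 and 21.1% higher in GM12878. In K562 against GM12878, 1 of 42 was called, ATP5MF, higher in K562, against 28.7% of all genes, 13.9% higher in K562 and 14.8% higher in GM12878. In K562 against HepG2, 7 of 42 were called, ATP5IF1, UQCRH, ATP5PB, ATP5MC2, SDHB, COX7B and CYC1, all higher in K562, against 44.1% of all genes in either direction, 17.4% higher in K562 and 26.7% higher in HepG2. The 3 comparisons share their libraries 2 by 2 and are not independent of one another. Members with an adjusted p under 0.05 at any size of change were 13, 13 and 18 of 42 in the same order. Of the 4778 genes tested, 2656, 1521 and 2409 had such an adjusted p.

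The median log2 change over tested members was -0.11 in HepG2 against GM12878, 0.28 in K562 against GM12878 and 0.42 in K562 against HepG2, beside 0.02, 0 and -0.07 over all genes tested. Without K562 replicate 2 the 2 medians with K562 were 0.11 and 0.27, beside -0.06 and -0.21 over all genes tested. In HepG2 against GM12878 the median was 0.04 without HepG2 replicate 2, beside 0 over all genes tested. With no filter on low counts it was 0.01, beside 0.1 over all genes tested. Of the 42, 29 had a fitted change above 0 in K562 against GM12878 and 32 in K562 against HepG2, counted whether or not they passed the test. Of the 4778 genes tested, 2332 and 2215 did. The ratio of the highest to the lowest line mean was 1.59 at the median member and 2.97 at the median gene. It was under 2 in 31 of 42 members (73.8%), against 30.8% of all genes, and under 1.5 in 18 (42.9%), against 13.5%. These ratios also carry counting error, and its part in the shares was not tested. The ratio was lowest for ATP5F1C, a subunit of the rotating stalk, at 1.09, and highest for ATP5IF1, at 4.28. The highest line was K562 for 24 members, GM12878 for 10 and HepG2 for 8, beside 1388, 1506 and 1884 of the 4778 genes tested.

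**Figure D2:**
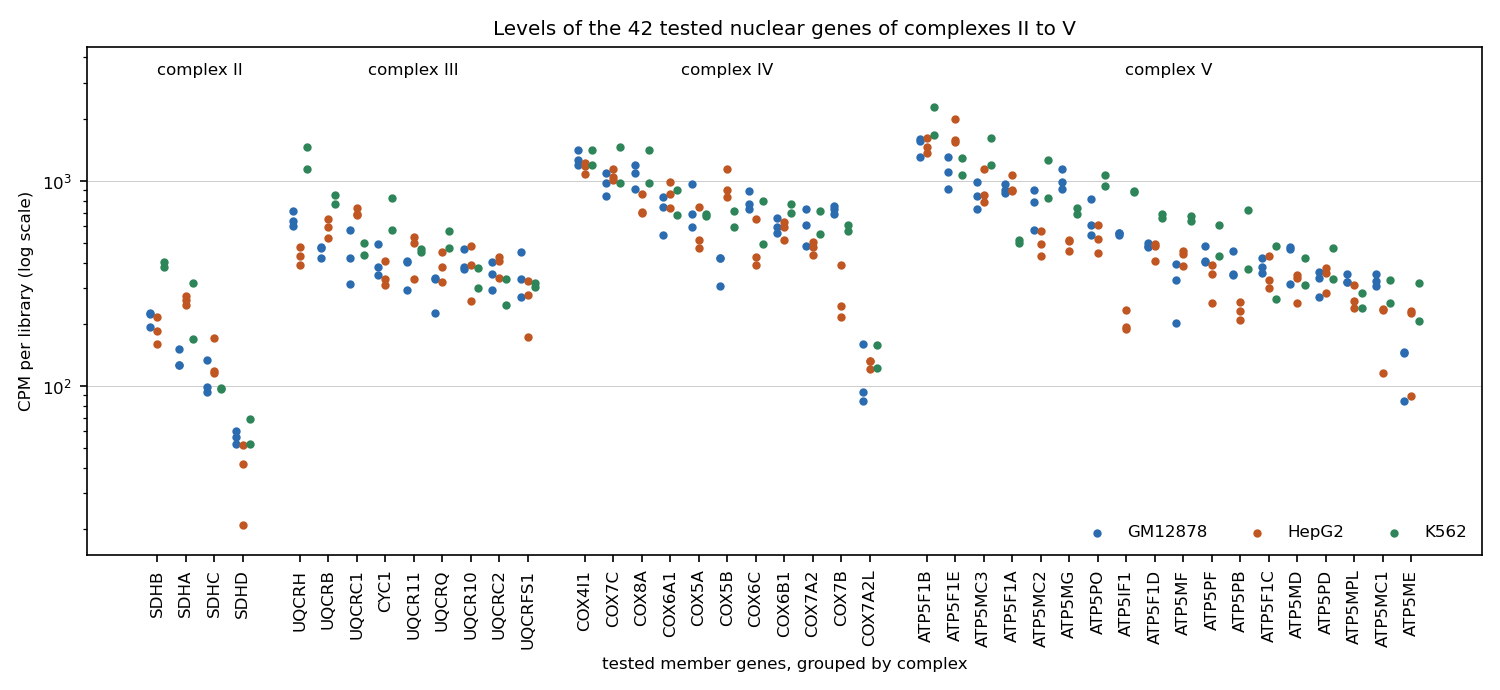
CPM in each library (points, log axis) of the 42 tested members, grouped by complex, with GM12878 in blue, HepG2 in orange and K562 in green. In 31 of the 42 the highest line mean is under 2 times the lowest, and ATP5IF1 shows the widest gap, running from 190 CPM in HepG2 to 889 CPM in K562.

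Of complex II, SDHB rose and the other subunits were not called. SDHB, the iron-sulphur subunit (chr1:17018722-17054170, minus strand), had 193, 227 and 225 CPM in GM12878, 160, 185 and 217 in HepG2, and 402 and 379 in K562. The K562 libraries lay above all others and the other lines overlapped. It was 1.06 ± 0.26 higher in K562 than in HepG2 on the log2 scale (± here is the standard error, adjusted p = 0.000585), and 0.98 higher without HepG2 replicate 1, under the 2-fold limit. The call was also lost without genomic models, a class described below. With 404 reads SDHB had the most of its complex. In K562 against GM12878 the change was 0.86, adjusted p = 0.0129, short of the 2-fold limit.

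SDHA, the flavoprotein subunit that binds succinate (chr5:218241-256700, plus strand), had 127, 151 and 127 CPM in GM12878, 264, 248 and 276 in HepG2, and 169 and 317 in K562. Both other lines lay above GM12878 without overlap, and the K562 libraries stood far apart. The log2 change in HepG2 against GM12878 was 0.94, adjusted p = 0.00431, just under the 2-fold limit. That direction rested on reads of new or incomplete models: over known models alone the change was -0.10, adjusted p = 0.876, and known models took 33.3% to 46.2% of SDHA reads in GM12878, 8.51% to 25.8% in HepG2 and 14.1% to 15.4% in K562. SDHA has near-identical pseudogene copies elsewhere in the genome, so its reads are uncertain. SDHC and SDHD anchor the complex in the membrane. SDHC averaged 109 ± 22 CPM in GM12878, 135 ± 31.6 in HepG2 and 97 ± 0.519 in K562, and SDHD 56.2 ± 3.82, 38.1 ± 15.5 and 60.5 ± 12.1 CPM, on as few as 4 reads in a library. Neither passed the test in any comparison.

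In complex III, UQCRH and CYC1 were higher in K562 than in HepG2. UQCRH, the hinge subunit that sits beside cytochrome c1 (chr1:46303631-46316776, plus strand), had 640, 716 and 605 CPM in GM12878, 432, 391 and 475 in HepG2, and 1470 and 1150 in K562. The 3 lines did not overlap, with HepG2 lowest and K562 highest. The log2 change was 1.59 ± 0.21 in K562 against HepG2, adjusted p = 7.64e-09, 0.99 in K562 against GM12878, adjusted p = 0.000227, and -0.60 in HepG2 against GM12878, adjusted p = 0.0109. Over known models alone the last was -0.30, adjusted p = 0.277. It had the most reads of its complex, 1171. UQCRHL, its near-identical copy without introns, had 46 reads, every one in genomic models, the class for reads that overlap a gene outside the spliced classes, and the assignment of reads to either copy is uncertain.

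CYC1, cytochrome c1, which passes electrons to cytochrome c, had 380, 349 and 492 CPM in GM12878, 332, 312 and 405 in HepG2, and 577 and 825 in K562. It was above both other lines in each K562 library, and 1.01 higher than HepG2 on the log2 scale, adjusted p = 0.000265. The change narrowly missed the limit without HepG2 replicate 2 and was 0.70 without K562 replicate 2. The call was also lost without genomic models and with RLE factors in place of TMM. UQCRB, which binds ubiquinone, averaged 456 ± 31.7, 593 ± 62.1 and 814 ± 59 CPM in GM12878, HepG2 and K562, an ordered set without overlap, and was 0.84 higher in K562 than in GM12878, adjusted p = 0.00278. UQCRQ had 299 ± 62.3, 384 ± 63.5 and 522 ± 69.6 CPM, with 0.81 and adjusted p = 0.0126 for K562 against GM12878. UQCRC1, a core subunit of the matrix side, was highest in HepG2 at 704 ± 29.3 CPM, against 436 ± 132 and 466 ± 43.9. Its change in HepG2 against GM12878 was 0.74, adjusted p = 0.00367, but over known models alone, which held 19.3% of its reads, it was 0.01, adjusted p = 1. The other 4 tested members, UQCR10, UQCR11, UQCRC2 and UQCRFS1, the Rieske protein, had no adjusted p under 0.05 in any comparison.

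In complex IV, COX5B and COX7B moved in opposite directions between HepG2 and GM12878. COX5B, a subunit on the matrix side that binds zinc (chr2:97646040-97648383, plus strand), had 307, 419 and 422 CPM in GM12878, 903, 835 and 1140 in HepG2, and 714 and 593 in K562. The 3 lines did not overlap and HepG2 was highest. The log2 change in HepG2 against GM12878 was 1.34 ± 0.22, adjusted p = 4.34e-07. K562 lay between, with a change of 0.78 against GM12878, adjusted p = 0.0092 and -0.57 against HepG2 with adjusted p = 0.0306. With only the 2 lines compared in the fit, the change against HepG2 was -0.39, adjusted p = 0.18.

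COX7B, a small membrane subunit (chrX:77899438-77907373, plus strand), had 687, 727 and 759 CPM in GM12878, 246, 217 and 387 in HepG2, and 571 and 611 in K562. HepG2 was lowest without overlap. It fell by 1.34 on the log2 scale in HepG2 against GM12878, adjusted p = 1.05e-06, and was 1.05 higher in K562 than in HepG2, adjusted p = 0.000219. The second change was 0.96 to 0.99, under the limit, without HepG2 replicate 1 or 2 or K562 replicate 2. That call was also lost without genomic models. COX6C, also a small membrane subunit, averaged 799 ± 81.5 CPM in GM12878, 490 ± 142 in HepG2 and 647 ± 217 in K562. It fell by 0.70 in HepG2 against GM12878, adjusted p = 0.00503, and by 0.48 over known models alone, adjusted p = 0.107. COX8A averaged 1060 ± 138, 756 ± 92.4 and 1200 ± 310 CPM, and it fell by 0.50 in HepG2 against GM12878, adjusted p = 0.0243, with -0.33 and adjusted p = 0.183 over known models alone.

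Complex IV has subunits with paired isoform genes, and the widely expressed form carried the reads in the pair that could be compared, COX4I1 and COX4I2. COX4I1 averaged 1290 ± 112, 1160 ± 70.1 and 1310 ± 159 CPM in GM12878, HepG2 and K562 and had 2029 reads, the most of its complex. COX4I2, its hypoxia-linked and lung form, had 1 read, in HepG2 replicate 3, so its level in GM12878 and K562 was under the floors of 7.63 and 6.76 CPM that a count of 0 allows. COX6A1, the widely expressed form beside a heart and muscle form, averaged 709 ± 146, 859 ± 125 and 791 ± 155 CPM, and COX6B1 604 ± 52, 581 ± 57.5 and 738 ± 53.3 CPM. COX7A2, likewise the widely expressed form, averaged 607 ± 124, 470 ± 34.4 and 633 ± 115 CPM, and COX7A2L, which joins complex III to complex IV in supercomplexes, 112 ± 41.4, 129 ± 6.34 and 141 ± 25 CPM. COX4I1, COX6A1, COX6B1, COX7A2, COX7A2L, COX5A and COX7C had no adjusted p under 0.05 in any comparison. COX6A2, COX6B2, COX7A1, COX7B2 and COX8C have names that the rule would take in, but they were not among the annotated genes of the deposited tables.

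**Figure D3:**
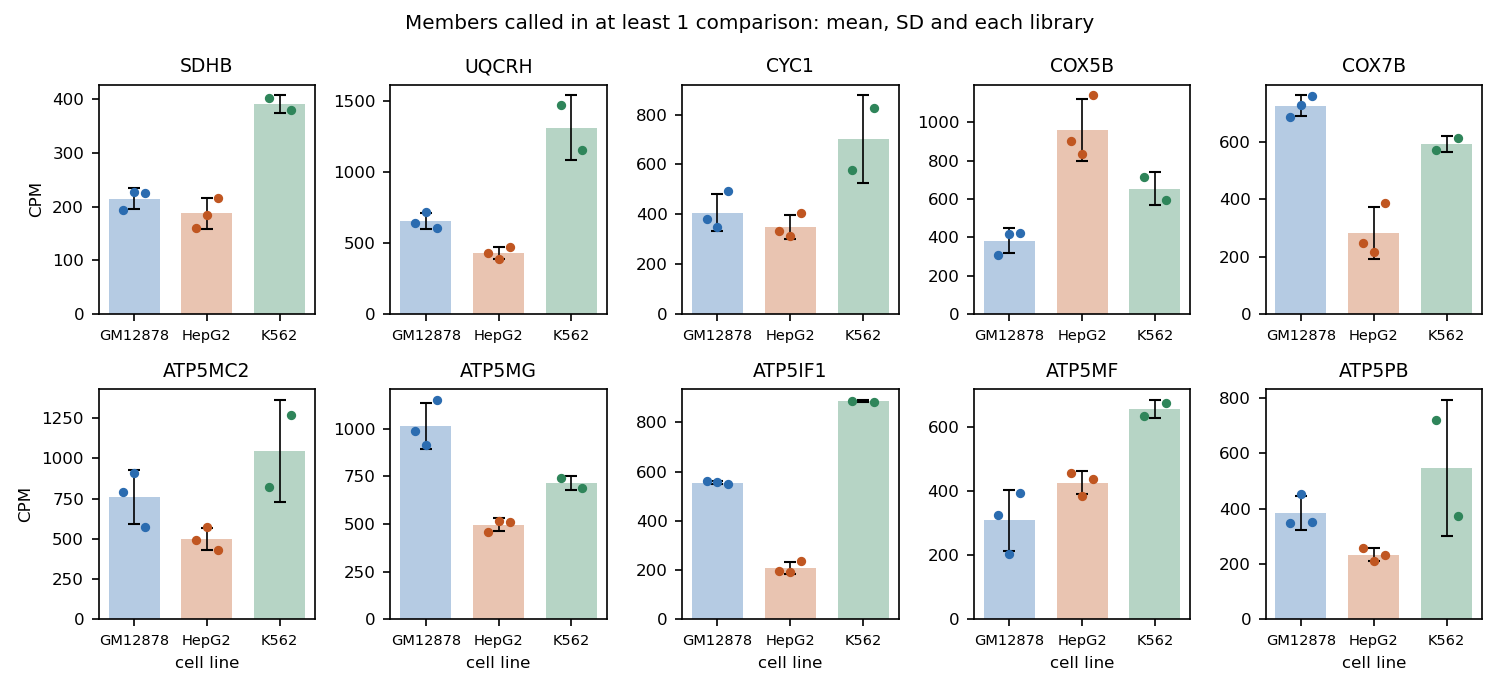
CPM per library (points), mean (bar) and SD (line) of the 10 members called in at least 1 comparison, by cell line. ATP5IF1 has 3 separate levels, 556, 207 and 886 CPM in GM12878, HepG2 and K562, and in the COX5B panel HepG2 is highest, at 960 CPM.

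In complex V the widest gap was that of ATP5IF1, the inhibitor that blocks ATP hydrolysis by the enzyme when the membrane loses its charge (chr1:28236109-28246906, plus strand). It had 560, 559 and 548 CPM in GM12878, 195, 190 and 236 in HepG2, and 889 and 883 in K562. Libraries of each line lay close together and the 3 lines did not overlap. On the log2 scale it was 2.09 ± 0.23 higher in K562 than in HepG2, adjusted p = 3.45e-11, and it fell by 1.42 in HepG2 against GM12878, adjusted p = 3.14e-07. It was 0.67 higher in K562 than in GM12878, adjusted p = 0.0184. ATP5IF1 and COX7B were the members called in both comparisons with HepG2.

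No subunit of the catalytic head or central stalk was called. ATP5F1B, the beta subunit that holds the catalytic sites, averaged 1490 ± 161, 1490 ± 128 and 1990 ± 434 CPM in GM12878, HepG2 and K562, with no adjusted p under 0.05, and had the most reads of all members, 2687. ATP5F1A, the alpha subunit, had 873, 966 and 900 CPM in GM12878, 906, 893 and 1070 in HepG2, and 513 and 500 in K562. K562 was lowest without overlap. ATP5F1A fell by 0.92 in K562 against HepG2, adjusted p = 0.00035, and by 0.85 against GM12878, adjusted p = 0.0019, the opposite direction to the 7 called members. Over known models alone the change against HepG2 was -0.43, adjusted p = 0.181. ATP5F1D, the delta subunit, was 0.55 higher in K562 than in HepG2, adjusted p = 0.0329. Over known models alone the ATP5F1D change was 0.52, adjusted p = 0.062. ATP5F1E, the epsilon subunit of the central stalk, was highest in HepG2 at 1710 ± 255 CPM, against 1110 ± 198 and 1190 ± 159, and was 0.61 higher there than in GM12878, adjusted p = 0.0042.

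ATP5PB and ATP5PO belong to the outer stalk that holds the head still. ATP5PB (chr1:111448864-111462773, plus strand) had 347, 454 and 351 CPM in GM12878, 258, 211 and 232 in HepG2, and 720 and 373 in K562. The K562 pair differed by more than the other lines did, and 1 K562 library fell within the GM12878 range. The change in K562 against HepG2 was 1.18, adjusted p = 0.000126, and without K562 replicate 1 it was 0.72, below the 2-fold limit. ATP5PF, also of the outer stalk, was 0.62 higher in K562 than in HepG2, adjusted p = 0.0297. Over known models alone the ATP5PF change was 0.58, adjusted p = 0.0611. ATP5PO had 444, 608 and 523 CPM in HepG2 and 941 and 1070 in K562, a change of 0.95, adjusted p = 0.000244.

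The membrane part of the enzyme held the remaining calls. ATP5MG, a subunit that helps pair the enzyme into dimers (chr11:118401154-118431496, plus strand), had 987, 913 and 1150 CPM in GM12878, 456, 518 and 512 in HepG2, and 740 and 687 in K562. The 3 lines did not overlap. It fell by 1.03 in HepG2 against GM12878, adjusted p = 1.34e-05, and 8 of 13 alternatives put it under 2-fold, among them those without GM12878 replicate 3, HepG2 replicate 1 or HepG2 replicate 3 (-0.96, -0.90 and -0.94). ATP5MF (chr7:99448475-99466331, minus strand) had 327, 204 and 394 CPM in GM12878, 456, 386 and 439 in HepG2, and 636 and 676 in K562. Both K562 libraries were above all others, and the change against GM12878 was 1.15, adjusted p = 0.000289. It was 0.97 without GM12878 replicate 2, the lowest library, and then no longer called. ATP5ME, another small membrane subunit, was 0.95 higher in K562 than in GM12878, adjusted p = 0.03. Over known models alone the ATP5ME change was 0.81, adjusted p = 0.122. ATP5F1C, ATP5MD, ATP5MPL and ATP5PD had no adjusted p under 0.05 in any comparison.

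ATP5MC1, ATP5MC2 and ATP5MC3 encode the same mature ring protein behind different import signals. ATP5MC1 averaged 328 ± 22.5, 196 ± 69.4 and 290 ± 52.8 CPM in GM12878, HepG2 and K562, ATP5MC2 759 ± 168, 499 ± 69.8 and 1050 ± 317, and ATP5MC3 853 ± 129, 929 ± 190 and 1410 ± 303. ATP5MC2 (chr12:53632726-53677408, minus strand) was 1.09 higher in K562 than in HepG2, adjusted p = 4.46e-05, with 824 and 1270 CPM against 431 to 571. Without K562 replicate 2 it was 0.71 and without HepG2 replicate 3 it was 0.94, both under the limit. ATP5MC3 was 0.73 higher in K562 than in GM12878, adjusted p = 0.0067, and ATP5MC1 fell by 0.69 in HepG2 against GM12878, adjusted p = 0.0217. Over known models alone the ATP5MC1 change was -0.20, adjusted p = 0.621, and without HepG2 replicate 2 it was -0.41, adjusted p = 0.224. Whether the 3 genes differ in their order of lines was not tested.

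Genes around the complexes were read from lists, and their counts stand beside the same background. The mitochondrially encoded subunits measured, MT-CYB of complex III, MT-CO1, MT-CO2 and MT-CO3 of complex IV and MT-ATP6 of complex V, were lowest on average in K562. They summed to 4190 ± 1410 CPM in GM12878, 6550 ± 784 in HepG2 and 2310 ± 1380 in K562, where the libraries had 1340 and 3280 CPM. In K562 against HepG2, 3 of 5 were called lower and none higher, and in K562 against GM12878, 2 of 5 lower and none higher. Of all genes tested, 26.7% were called lower and 17.4% higher in K562 against HepG2, and 14.8% and 13.9% against GM12878. In HepG2 against GM12878 edgeR called 0 of 5, against 49.1% of all genes, with 1 of the 5 at an adjusted p under 0.05. MT-ATP6 had 13.0 to 44.8 CPM in K562, 155 to 400 in GM12878 and 243 to 459 in HepG2, and it fell by 3.31 against HepG2, adjusted p = 1.25e-06, and by 2.92 against GM12878, adjusted p = 3.54e-05. MT-CO1 had 221 to 455 CPM in K562, 640 to 844 in GM12878 and 1150 to 1640 in HepG2, and MT-CYB 32.4 to 176, 408 to 588 and 383 to 1070 CPM. The K562 libraries with 1340 and 3280 CPM held 142837 and 313454 reads, and the part of depth in this difference was not tested.

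Assembly and insertion factors are proteins that build the complexes without staying in them. Of 30 tested among 47 listed, 8 were called higher and 5 lower in HepG2 against GM12878, 2 higher and 4 lower in K562 against GM12878, and 1 higher and 10 lower in K562 against HepG2, beside 49.1%, 28.7% and 44.1% of all genes called. COA3, which stabilises newly made MT-CO1, had 59.2 ± 16.1 CPM in GM12878, 337 ± 42.8 in HepG2 and 46.4 ± 16.9 in K562, a rise of 2.56 in HepG2 against GM12878, adjusted p = 3.45e-09. OXA1L, the insertase of the inner membrane, had 113 ± 29.2, 534 ± 16.5 and 142 ± 8.54 CPM, and COX20, which guides MT-CO2, 51 ± 20.3, 240 ± 28.8 and 48.4 ± 4.99 CPM. COX17, which carries copper to complex IV, was highest in GM12878 at 296 ± 69.4 CPM, against 82.2 ± 20 and 70.2 ± 1.68, and it fell by 2.03 in K562 against GM12878, adjusted p = 7.7e-06. The other factors of largest change were TIMM21, -2.51 in HepG2 against GM12878, COX16, -1.75, and UQCC3, 1.67, in K562 against GM12878, and COX11, -2.21 in K562 against HepG2. Members pass the filter on low counts partly through the line where they are high, so these counts are descriptions.

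Of 20 porin, import and matrix genes, all tested, 1 was called higher and 2 lower in HepG2 against GM12878. In K562, 4 were called higher and 0 lower against GM12878, and 2 higher and 3 lower against HepG2. The shares of all genes called higher and lower were 28% and 21.1%, 13.9% and 14.8%, and 17.4% and 26.7% in the same order. TOMM6, a small subunit of the outer membrane import pore, changed by 1.67 and TOMM20, its receptor, by 1.60 in K562 against GM12878. The list summed to 8630 ± 429, 9600 ± 573 and 8780 ± 763 CPM in GM12878, HepG2 and K562, and the K562 range overlapped those of both other lines. CYCS, cytochrome c, the carrier between complexes III and IV, averaged 248 ± 33.6, 168 ± 102 and 422 ± 36 CPM and was 1.29 higher in K562 than in HepG2, adjusted p = 0.000378. Of 11 regulators of nuclear respiratory genes, 6 were tested. ESRRA, a nuclear receptor, was called higher and TFB2M, a mitochondrial transcription factor, lower in HepG2 against GM12878, and PPRC1, a coactivator, lower in K562 against GM12878. NRF1 and GABPA, with 28 and 16 reads in all, were below what could be tested.

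The members' reads were mostly assigned to annotated transcripts. Over the 8 libraries, 66.1% of member reads fell in known models, against 42.9% of all gene reads. Incomplete splice matches, which follow part of an annotated intron chain, held 13.5% against 22.6%, new combinations of annotated splice sites 14.1% against 17.4%, unannotated splice sites 5.61% against 6.17%, and genomic models 0.665% against 10.9%. The known share of member reads was 66.6% ± 0.781 in GM12878, 62.8% ± 3.08 in HepG2 and 69% ± 2.15 in K562, in the order seen over all genes, 45.3% ± 0.716, 39.5% ± 1.92 and 47.7% ± 0.0844. By complex, known models held 35.7% of reads in complex II, 69.4% in III, 72.8% in IV and 61.9% in V.

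**Figure D4:**
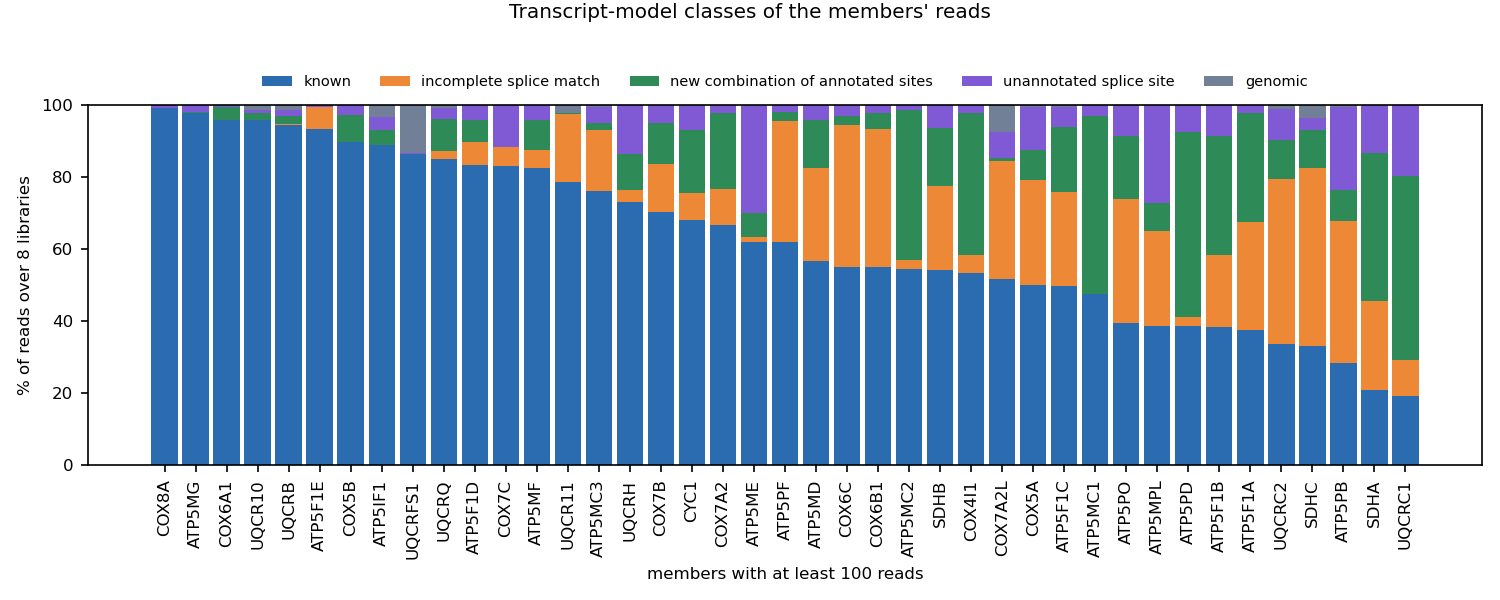
Share of reads by class of transcript model over the 8 libraries, in percent, for the 41 members with at least 100 reads, ordered by the known share. The known share runs from 99.1% in COX8A to 19.3% in UQCRC1, and incomplete splice matches and new combinations fill most of the rest.

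The known share fell with the number of exons. Over 41 members, Spearman's rho was -0.787 between the known share and the exons of the known model with most reads, and -0.323 with its length, points that share libraries and depth. That model is picked by reads. Where it is a short annotated form, such as UQCRB-208 with 3 exons, its reads lower the exon number and raise the known share. The part of this in rho was not tested. COX8A, with 2 exons, had 99.1% in known models, and UQCRC1, with 13, had 19.3%. Among members with at least 20 reads in every library the 3 lowest were UQCRC1, at 51.3% in new combinations and 19.6% with an unannotated site, ATP5PB, at 28.4% known and 39.4% incomplete, and UQCRC2, at 33.7% known and 45.8% incomplete. UQCRC1 lies at chr3:48599002-48610976 on the minus strand. Its known share was 25% to 27.7% in GM12878, 9.30% to 18.4% in HepG2 and 19.4% to 30.6% in K562.

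An exact permutation test over the 560 assignments of libraries to lines, whose smallest p is 0.00357, was run on the known share of each gene with at least 20 reads in every library. None of 36 members and none of 466 genes passed (0%), the smallest adjusted p being 0.238. With that smallest p over 466 genes the test leaves little room for a call, so no conclusion is drawn from this. At an unadjusted p under 0.05 were 3 of 36 members, ATP5IF1, COX6C and CYC1, and 13.9% of genes. The ATP5IF1 known share was 89.7% to 96.4% in GM12878, 76.6% to 83.3% in HepG2 and 86.1% to 93.8% in K562. Its ranges separate HepG2 from both other lines, but its adjusted p in this test was 0.324.

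Known models whose intron chain matches only the 3′ end of a longer annotated chain were counted as well. Native RNA is read from the 3′ end, so a read that stops early or comes from a broken molecule lacks 5′ exons. Of 185 known models of the members, 153 had reads, and 31 of these have an intron chain that is the 3′ end of a longer annotated chain. Those 31 held 17% of the 25870 known reads, and their reads are part of the known share. They include protein-coding forms such as ATP5F1A-202, with 505 reads, so a read in them need not be incomplete. Together with incomplete matches that keep the 3′ end, they took 22.2% ± 0.692 of member reads in GM12878, 26.2% ± 1.94 in HepG2 and 21.6% ± 1.36 in K562. The HepG2 libraries, at 24.3% to 28.1%, lay above the others, at 20.6% to 22.6%. The HepG2 excess was not particular to the members. Incomplete matches of any kind took 18.2% ± 0.24, 26.4% ± 1.28 and 18.2% ± 0.573 of all gene reads in GM12878, HepG2 and K562. Of member reads they took 12.7% ± 0.215, 16.1% ± 1.56 and 11% ± 1.29. Which of these reads came from shortened molecules was not tested.

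Some new models recurred in all 8 libraries. The largest, a model of COX4I1 with 4 exons and annotated splice sites in a new combination, had 455 reads, 22.4% of that gene. One of ATP5MC2 with 3 exons had 363 reads, 30.1% of its gene, and one of ATP5PD with 5 exons had 174, 29.5%. These 3 are examples chosen after their values were seen, and other new models had more reads than that of ATP5PD. The deposited tables give their exon number and length, not their splice sites, so their exons are not described.

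Use of known transcripts could be tested in 28 members and 676 genes in all. In HepG2 against GM12878, 2 of 28 members were called at an adjusted Simes p under 0.05 from edgeR's diffSpliceDGE and a share that moved by 10 percentage points or more, against 1.63% of genes. They were ATP5MC1 and ATP5F1B. No member was called in K562 against GM12878 (0.592% of genes) or K562 against HepG2 (0.888%), where 3 and 5 members had an unadjusted p under 0.05.

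ATP5MC1 used the longer first exon shown above more in HepG2. Reads of ATP5MC1-201 and ATP5MC1-202 numbered 6 and 1, 11 and 0, and 2 and 0 in the GM12878 libraries, 5 and 22, 2 and 3, and 6 and 13 in the HepG2 libraries, and 10 and 4, and 14 and 8, in the K562 libraries. Pooled by line, ATP5MC1-202 was 5% of both forms in GM12878 (exact 95% binomial interval 0.127% to 24.9%), 74.5% in HepG2 (60.4% to 85.7%) and 33.3% in K562 (18.6% to 51%). Intervals cover counting error only. The shares did not overlap between lines, with GM12878 at 0% to 14.3%, K562 at 28.6% and 36.4%, and HepG2 at 60% to 81.5%.

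As a share of all its known transcripts, ATP5MC1-202 was 38.9 points higher in HepG2 than in GM12878, adjusted p = 0.00285. Counts were small, and the adjusted p was 0.124 without GM12878 replicate 2 and 0.0507 without HepG2 replicate 1. A shorter form annotated as a retained intron has the intron chain of the 3′ end of the others and had 31, 33 and 27 reads in the 3 lines, and a new model of 4 exons had 50, 57 and 53. First exons could thus be assigned in a minority of the gene's 127, 166 and 134 reads. Both first-exon forms leave the protein unchanged.

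**Figure D5:**
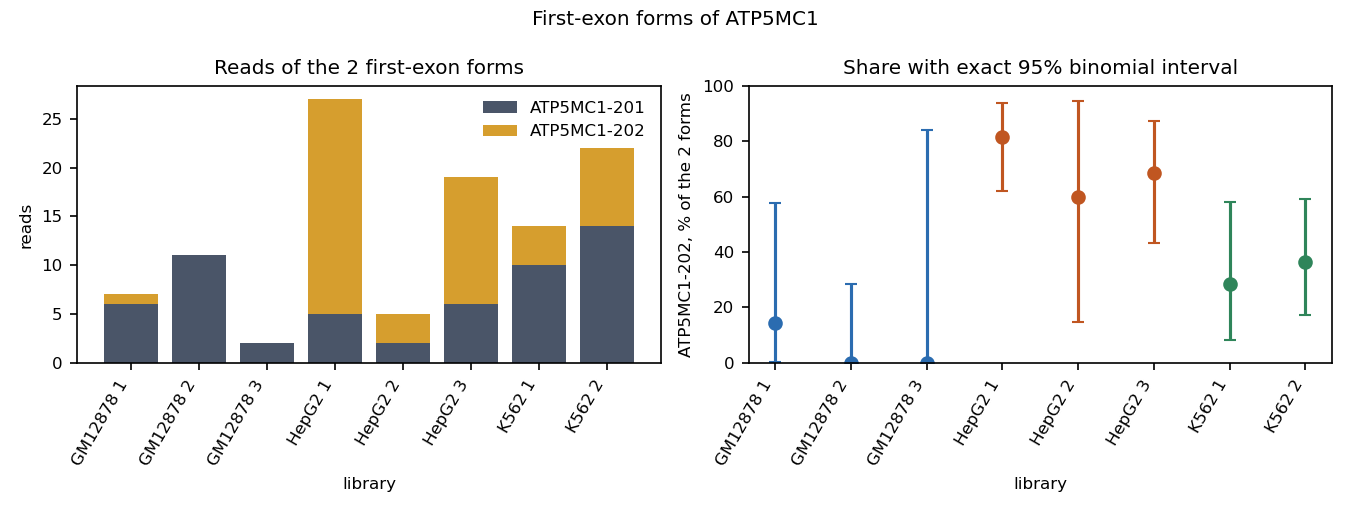
Left, reads of ATP5MC1-201 and ATP5MC1-202 in each library, stacked. Right, ATP5MC1-202 as a percentage of both, with exact 95% binomial intervals, by line; HepG2 lies at 60% to 81.5% and GM12878 at 0% to 14.3%.

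ATP5F1B (chr12:56638175-56646068, minus strand) was the other member. Its full transcript ATP5F1B-201, of 10 exons, fell by 24.1 points of known reads in HepG2 against GM12878, adjusted p = 0.0146. The gain was in ATP5F1B-208, an annotated noncoding form of 2 exons whose one intron is the last intron of ATP5F1B-201. A read of the full transcript that begins in its exon 9 carries the same junction, so the short form and a shortened read cannot be told apart. ATP5F1B-208 was 16.7%, 8.74% and 18.6% of both forms in GM12878, 28%, 41.7% and 46.6% in HepG2, and 22.1% and 17.5% in K562. Incomplete matches that keep the 3′ end moved with it, at 16.8% to 18.5% of the gene's reads in GM12878, 21.8% to 23.8% in HepG2 and 15.1% to 16.8% in K562. Over all genes, too, incomplete matches of any kind were highest in HepG2, at 26.4% ± 1.28 of reads. The call was lost without GM12878 replicate 1 or 2 or without HepG2 replicate 2 or 3, with adjusted p from 0.0561 to 0.429.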

How the data were processed

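Native RNA of 8 libraries was sequenced, per the labels, and minimap2 and hg38 are the aligner and build that the submitters' processing notes name, without a version. The deposited TALON tables hold read counts per transcript model, not normalised, per the file headers, and exon numbers and lengths as other deposited values. Direct RNA gives 1 read per molecule, so CPM were not divided by length, and levels were compared between lines, not between genes. Counts of all models were summed by gene. In edgeR 4.0.16 (R 4.3.3), filterByExpr removed low genes, TMM scaled the libraries, and 1 robust quasi-likelihood fit over the 8 libraries gave two-sided tests. Lines followed the library titles. CPM used TMM factors. For usage, diffSpliceDGE took known transcripts of 10 or more reads, where a gene reached 10 reads per line. Floors were 3 counts over a line. Models matched GENCODE 29 by identifier, exon number and length, 185 of 185. DESeq2 1.42.0, other scalings, filters and model sets, a replicate block and leaving out each library were alternatives. Procedures were tested on simulated data. Named genes were members called in any comparison or usage test, the SDH genes, paralog families, the member with most reads per complex, the 3 lowest known shares, and up to 3 called genes of largest change per list; further members named for an adjusted p under 0.05, or to complete a complex, were chosen after their values were seen. Members and lists were chosen with earlier results of these data known. The shortest known model had 300 bases, so shorter RNAs were not analysed here.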

Additional observations from a re-analysis of the deposited data

Results flagged for a closer look

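Of 8 pseudogene-type names left out of the members, 3 had more reads than the 3 that a count of 0 allows. COX6A1P2 had 42 reads over the 8 libraries, 3 to 9 in each, beside 1356 for COX6A1. UQCRFS1P1 had 5 and ATP5F1CP1 had 4. Whether these reads belong to the parent genes was not tested.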

How the results depend on the processing

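Over the changes of members with an adjusted p under 0.05, 479 of the 541 values under alternatives kept their direction and stayed called or uncalled, 23 lost the call, 36 gained it and 3 reversed. The adjusted p was no longer under 0.05 in 105 of the 541, 53 of them with 1 library left out, 17 with DESeq2, 17 with known models only and 9 with no low-count filter. The 3 came from known models only: SDHA, -0.10 in HepG2 against GM12878 and -0.55 in K562 against GM12878, and UQCRC1, 0.24 in K562 against HepG2. In K562 against GM12878 the count of 1 called member became 2 with RLE factors, 7 with no low-count filter (1912 genes called, against 1371), 3 with only the lines compared, 3 with known models only and 2 with DESeq2. It was 3 to 4 when 1 library was left out, 4 without GM12878 replicate 2, where ATP5MF was lost. UQCRH, at 0.99, was among the genes gained in most of these. In K562 against HepG2 the count of 7 was 4 without genomic models and 5 to 7 with 1 library left out, and in HepG2 against GM12878 the count of 4 was 3 to 5. Without the filter, 3746 and 3298 genes were called in HepG2 against GM12878 and K562 against HepG2, beside 2348 and 2105. With known models only they were 777, 459 and 714 of 1702 genes tested, in the order HepG2 against GM12878, K562 against GM12878 and K562 against HepG2, since fewer genes were tested. The median of all genes moved to 0.11 without GM12878 replicate 1 in HepG2 against GM12878 and to -0.21 without K562 replicate 2 in K562 against HepG2. The summed member CPM was 34100, 34300 and 44500 in GM12878, HepG2 and K562 over known models only and 25100, 24700 and 30000 without genomic models, and 22800 to 23900, 20600 to 22800 and 26900 to 28700 with 1 library left out. Usage calls in HepG2 against GM12878 were 0 to 2 with 1 library left out, 0 without GM12878 replicate 2. The known-share test called 0 members under its alternatives too, but with a smallest p of 0.00357 over 466 genes it leaves little room for a call, and this says nothing of stability. Same replicate numbers did not pair the libraries: correlations of deviations were -0.0535 to 0.0381 over 7 pairs, and 0 of 8 libraries correlated best with its own number. With the replicate block the counts were 4, 1 and 7 (ATP5MC2 lost, ATP5PO gained in the last), and usage calls 2, 0 and 0. K562 rests on 2 libraries, and SDHD had as few as 4 reads in a library.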
